A study of Mus musculus with 8 samples.

Results

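Genes named as proteins of the cytosolic ribosome were read in the white quadriceps of mice with and without Acot2 in muscle. Gene names of the form Rpl or Rps followed by a digit, together with Rplp0, Rplp1, Rplp2 and Rpsa, were taken from the table of 54091 genes, leaving out names with "-ps" and the Rps6 kinases. This gave 91 names, and 86 of them reached 10 normalized reads in 4 or more libraries of the 8. Rpl23 was not among the 91 names. A normalized read is a read count divided by 1 scaling factor per library. Of the 86, 45 code for proteins of the large subunit, 31 for proteins of the small subunit and 9 are paralogs or retro copies (Rpl3l, Rpl22l1, Rps27l, Rpl36al, Rpl7l1, Rps4l, Rpl37rt, Rps3a2 and Rps27rt). The last, Rps19bp1, has a matching name but codes for a protein that binds a ribosomal protein. It was kept because the naming rule takes it.

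All 8 mice were chow-fed males of 11 to 14 weeks, and the white part of the quadriceps was taken in the morning. The 4 control animals had the genotype Loxp/Loxp. The 4 Acot2 mKO animals had CKM Cre, in which the muscle creatine kinase promoter drives the recombinase in muscle fibres, so the other cells of the tissue would keep Acot2. The control genotype names no Cre, so Cre and the loss of Acot2 cannot be told apart. Separate animal numbers mark each library as 1 animal.

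Acot2, the mitochondrial acyl-CoA thioesterase that was targeted, fell from 213 ± 45.9 to 47.3 ± 5.03 normalized reads (SD, n = 4 each), and the groups did not overlap (limma adjusted p = 0.000962). Reads counted for genes, recovered from the deposited values, came to 30415373 to 48834273 per library. The labelled tissue was checked against markers of fast glycolytic fibres, whose 9 genes were the most abundant of the marker lists and summed to between 4670300 and 5963800 normalized reads per library. Markers of other fibres and cells differed between animals. The 10 slow fibre genes summed to between 2454 and 3750 in 6 libraries, to 8876 in Acot2 mKO 3 and to 20851 in Acot2 mKO 4. Myh2 and Myoz2 of oxidative fast fibres summed to between 805 and 74559. The 10 adipocyte genes ran from 11552 to 83117 and were highest in control 2. Without Car3, the most abundant of them, the other 9 summed to 24107 in control 2, 10354 in control 3 and 2824 to 4463 in the other 6 libraries. None of the listed marker genes was at 0 in all libraries.

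A ribosome is built from ribosomal RNA and a fixed set of ribosomal proteins, most of them in a single copy, so cells make these proteins in near-equal amounts. Many of the mRNAs start with a C followed by a run of pyrimidines, the terminal oligopyrimidine or TOP motif, through which the growth regulator mTORC1 sets their translation. Striated muscle is known for a paralog of its own, Rpl3l, which takes the place of the ubiquitous Rpl3 near the catalytic centre of the large subunit in mature fibres.

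The start of transcription was read from the RefSeq promoter table (GRCm38.p6), which held 64 of the 86 members. A C followed by at least 4 pyrimidines within 5 bases of an annotated start was found in 30 of the 64, or 46.9%, against 24.1% of the 10176 tested genes in the table. Where a gene had several annotated starts, a match at any of them counted. The starts used in this muscle were not measured, so members without a match are not shown to lack the motif. The following 7 are examples from both subunits in which the annotated start itself is such a C (capitals from the start to the end of the run, which can reach further upstream), with Rpl3l last as a member without one within 5 bases of its start. Each is 15 bases before the start and 15 from it.
Rpl15 (chr14:18270972-18271001, minus strand): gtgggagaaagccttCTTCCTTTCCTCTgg
Rpl28 (chr7:4792950-4792979, plus strand): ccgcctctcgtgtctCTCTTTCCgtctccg
Rpl35 (chr2:39005117-39005146, minus strand): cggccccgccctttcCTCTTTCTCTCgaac
Rpl38 (chr11:114668565-114668594, plus strand): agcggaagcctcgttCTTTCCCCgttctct
Rps6 (chr4:86857353-86857382, minus strand): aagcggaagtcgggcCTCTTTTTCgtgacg
Rps10 (chr17:27635230-27635259, minus strand): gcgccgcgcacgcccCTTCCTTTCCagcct
Rps18 (chr17:33955651-33955680, minus strand): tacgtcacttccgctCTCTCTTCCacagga
Rpl3l (chr17:24727811-24727840, plus strand): gagtgttctagctctgtcatttgacctctg

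Further motifs were searched on both strands of the whole promoter window, from 250 bases before to 50 after each annotated start. A gene counted if any of its windows matched. CCGGAAG can overlap AAGATGGC by the AAG that they share. TCTCGCGA was in 17.2% of the 64 members against 2.44% of tested genes. CCGGAAG, the core that ETS factors bind, was in 39.1% against 19.6%. AAGATGGC, the core of YY1 sites, was in 9.38% against 5.15%. CAGCTG, an E-box of the kind that muscle regulatory factors bind, was in 4.69% of members against 18.3% of tested genes. It was searched after the Rpl3l sequence had been seen. The 150 bases before 1 annotated start of Rpl3l hold it (capitals) close to that start. Those before its other annotated start (chr17:24732535-24732684) do not.
Rpl3l (chr17:24727676-24727825, plus strand): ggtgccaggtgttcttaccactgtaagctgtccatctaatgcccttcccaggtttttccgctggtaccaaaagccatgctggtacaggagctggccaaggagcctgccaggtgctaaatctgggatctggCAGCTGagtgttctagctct
A match in these windows is a match of letters and does not show that a factor is bound.

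Ribosomal protein mRNAs were abundant in this muscle relative to their length. The 76 subunit proteins had a median of 3980 normalized reads per kb of transcript (mean of 8 libraries), against 117 for 13199 tested genes with a length. The level per kb of 72 of the 76 lay above 1000, and the middle 50% ran from 2643 to 5898. The highest levels per kb were those of the stalk protein Rplp1 (11957), the small-subunit protein Rps2 (9306), the stalk proteins Rplp0 (8664) and Rplp2 (8231), and Rps27 (8198), a zinc-finger protein of the small subunit. The stalk is the part of the large subunit that recruits translation factors, and its 3 genes were among the 4 highest. Together the 86 members took 0.708% ± 0.0418 of all reads counted for genes in controls and 0.743% ± 0.0662 in knockouts (SD, n = 4 each). In animal order, the share was 0.714%, 0.670%, 0.764% and 0.683% in controls and 0.742%, 0.693%, 0.836% and 0.699% in Acot2 mKO animals. The groups overlapped, and the highest share was that of Acot2 mKO 3.

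The lowest levels per kb belonged mostly to copies. Rps3a2 had 35.7, Rps27rt 40.8 and Rps4l 51.8 normalized reads per kb, and GENCODE M21 lists Rps3a2 and Rps4l as pseudogenes. Rpl13a, known for a role in translational silencing of inflammatory mRNAs, had only 84.4 per kb, and Rps19bp1 had 150.3. The 88.4 normalized reads of Rpl13a were far below the 2393 of the median large-subunit gene. The large-subunit protein Rpl24 was likewise low, with 167 per kb. Ribosomal protein genes have many retro copies, and the sources used here do not say how reads that match several places were counted. For each member, the share of 50-base stretches of its transcript that also occur in the transcripts of other GENCODE genes was therefore computed. The share ran from 0% to 98.7% with a median of 61.7%, and it was above 50% in 56 of the 86. It was 57.4% for Rpl13a, 81.7% for Rpl24 and 98.7% for Rps27, which had 1 of the 5 highest levels. Across the 86 genes, copies included, which are not independent replicates, the share and the log2 level per kb had Pearson's r of -0.0316 and Spearman's rho of -0.0469. The part of shared sequence in the low levels of Rpl13a and Rpl24 was not tested. The rows named "-ps" that passed the filter numbered 15, and all 294 such rows held 0.174 to 0.213 reads for each 100 reads of the members.

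**Figure D1:**
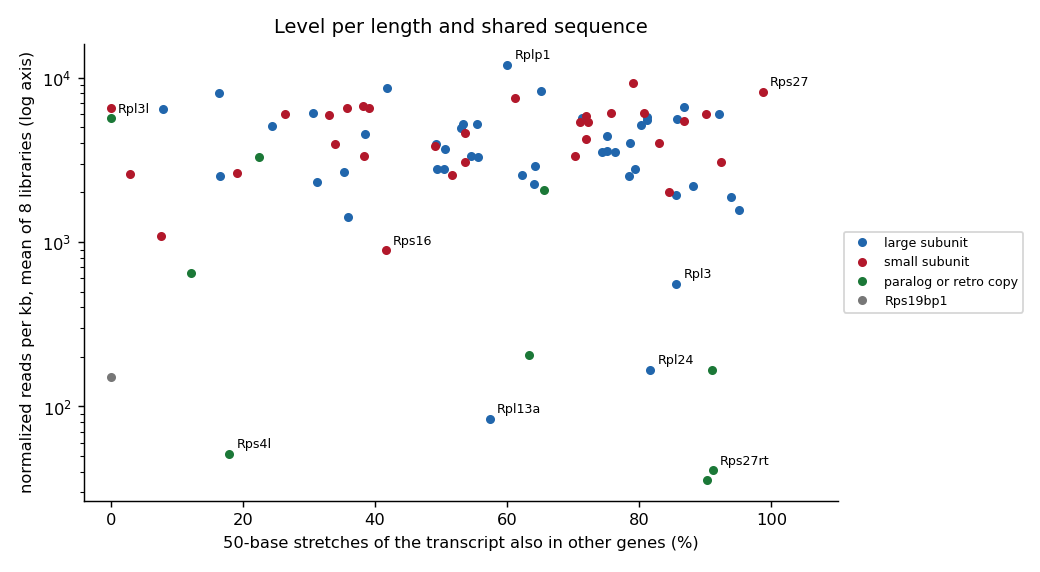
Normalized reads per kb of transcript (mean of 8 libraries, log axis) against the share of 50-base stretches that other genes also hold (%), 1 point per member, coloured by kind. Rplp1 lies at the top with 11957, while Rpl13a, Rpl24 and Rpl3 lie far below other large-subunit genes. Rps27 has a high level, and 98.7% of its stretches are shared.

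Rpl3l was the dominant form of its pair. Its gene lies on chromosome 17 from 24727820 to 24736143 (plus strand, GRCm38), and Rpl3 lies on chromosome 15 from 80077791 to 80091868 (minus strand). Rpl3l had 7910, 7443, 7876 and 7741 normalized reads in controls and 7629, 7432, 8804 and 7627 in Acot2 mKO animals, which made it the member with the fourth highest count. Rpl3 had 658, 796, 760 and 817 in controls and 729, 595, 818 and 861 in Acot2 mKO animals. The paralog thus exceeded its partner in every animal, by 8.85-fold at the least and 12.5-fold at the most. The groups overlapped for both genes. Per kb of transcript the ratio over all 8 libraries was 10.2.

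The size of that ratio depended on how the reads were set against length. No 50-base stretch of Rpl3l occurs in another gene, whereas 85.6% of the stretches of Rpl3 do, in 26 other genes. Neither gene shares a stretch with the other. Set against stretches that no other gene holds, Rpl3l exceeded Rpl3 by 1.47-fold with stretches of 50 bases and 2.09-fold with stretches of 100 bases. These bases of comparison were added after the levels had been seen, and would apply if only reads with a single match had been counted. On the 50-base basis Rps27, with 4 such stretches, would stand at 70711 normalized reads per 100 stretches. The same measure is 589 for Rpl3l and 401 for Rpl3. The part of shared sequence in the level of Rpl3 was not tested.

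Between genotypes, the log2 ratio of Rpl3l to Rpl3 was 3.36 ± 0.167 in control and 3.40 ± 0.203 in Acot2 mKO animals (SD, n = 4 each). The difference of 0.0435 ± 0.131 (SE) was smaller than the spread between animals (exact two-sided permutation test over 70 relabellings, p = 0.771, 0.943 after Benjamini-Hochberg adjustment over 6 pairs). Rpl3l itself had a log2 fold change of 0.02 ± 0.06 (SE) with a 95% interval from -0.12 to 0.16. For Rpl3 it was -0.02 ± 0.12 with an interval from -0.28 to 0.23. Without Acot2 mKO 3 the value for Rpl3l became -0.03.

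Rpl3 followed another order across animals than most members. It was highest in Acot2 mKO 4 (861) and lowest in Acot2 mKO 2 (595). These 2 animals also had the highest and the lowest sums of the 8 fibroblast genes (98703 and 54269 normalized reads, 57916 to 84285 in controls) and of the 10 macrophage genes (4207 and 1854, 2748 to 3637 in controls). Control 1, with the second lowest Rpl3, had the highest macrophage sum of the controls. Among controls the fibroblast sum was lowest in control 3 (57916), whereas Rpl3 was lowest in control 1 (658). The endothelial sum was highest in Acot2 mKO 4 (8479) and lowest in Acot2 mKO 1 (6041). So was the slow fibre sum, with 20851 in Acot2 mKO 4, 8876 in Acot2 mKO 3 and 2454 in Acot2 mKO 1. Like Rpl3, Rpl3l was lowest in Acot2 mKO 2, but it was highest in Acot2 mKO 3. In whole muscle, fewer cells of a type and less RNA per cell cannot be told apart. The part of these cells and fibres in the level of Rpl3 was not tested.

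In the other 5 pairs the paralog was the lower gene. Rpl22l1, the paralog of the RNA-binding protein Rpl22, had 1119 ± 63.0 normalized reads in controls and 1172 ± 152 in Acot2 mKO animals, 0.480 ± 0.0353 and 0.478 ± 0.0294 of Rpl22. Rps27l, known as a p53 target, had 1618 ± 108 and 1673 ± 164, 0.579 ± 0.0183 and 0.584 ± 0.0171 of Rps27. That ratio ran from 0.552 to 0.608 over the 8 animals and was the steadiest of the 6.

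Rpl36al had 105 ± 6.57 and 111 ± 18.6 normalized reads, 0.114 ± 0.00657 and 0.117 ± 0.0169 of Rpl36a. Rpl7l1, a nucleolar protein that resembles Rpl7, had 835 ± 55.7 and 866 ± 60.3, 0.140 ± 0.00529 and 0.139 ± 0.0158 of Rpl7. Rps4l, listed by GENCODE as a transcribed processed pseudogene, had 42.9 ± 8.60 and 38.8 ± 9.94, which is 0.00828 ± 0.00158 and 0.00732 ± 0.00198 of Rps4x. All values are SD with n = 4. No difference between groups in these 5 ratios passed the exact permutation test, with raw p from 0.371 (Rps4l to Rps4x) to 0.943 (Rpl22l1 to Rpl22) and an adjusted p of 0.943 for each. None of the 6 paralogs shares a 50-base stretch with its partner. As for Rpl3, nearly all stretches of Rps27 occur in other genes, which leaves 4 of its 296. Set against 50-base stretches that no other gene holds, the ratio of Rps27l to Rps27 would be 0.00667.

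**Figure D2:**
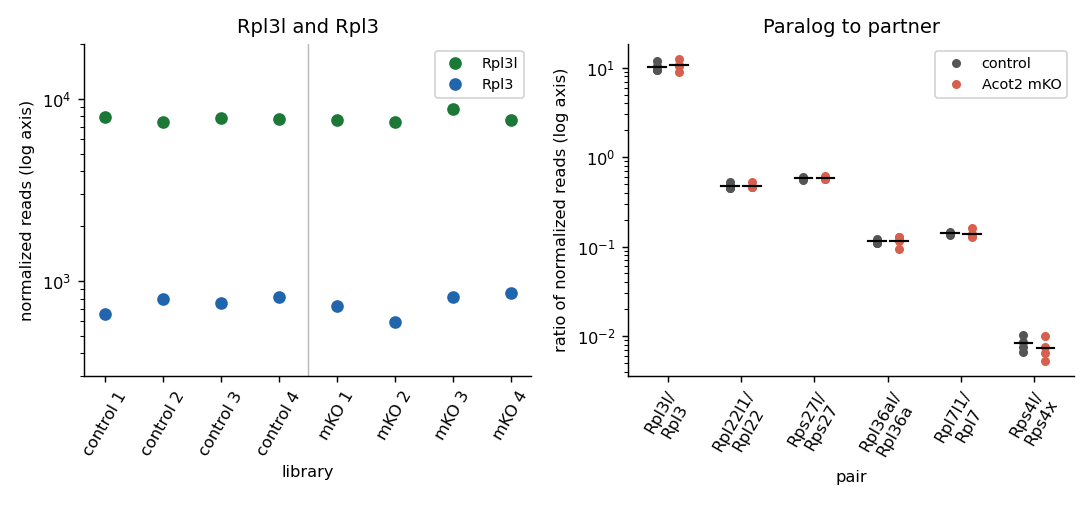
Left, normalized reads of Rpl3l and Rpl3 in each library (log axis), with Rpl3l between 7432 and 8804 and Rpl3 between 595 and 861. Right, the ratio of each paralog to its partner (log axis) in 4 control and 4 Acot2 mKO animals (points) with the group mean (bars), and the groups overlap in all 6 pairs.

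The ribosomal protein mRNAs moved together from animal to animal. Each member's log2 level was set against its own mean over the 8 libraries, and the median over the 86 members was taken in each library. That median was -0.01, -0.05, 0.02 and -0.04 in controls and 0.04, -0.02, 0.19 and -0.12 in Acot2 mKO animals, while the median over all 13638 genes stayed between -0.00033 and 0.0094. The scaling factor of a library can by itself hold the median over all genes near 0. In Acot2 mKO 3 all 86 members lay above their mean, against 51.8% of all genes, and 74 of the 86 had their highest level there, against 18.6% of all genes. In Acot2 mKO 4 only 4 members lay above their mean, against 50.6% of all genes, and 43 of the 86 had their lowest level there, against 12.6% of all genes. The large and the small subunit shifted alike, with medians of 0.193 and 0.195 in Acot2 mKO 3 and of -0.116 and -0.0966 in Acot2 mKO 4. With the deposited scaling, the animals at both ends were thus of the same genotype.

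Single members show the pattern. Rplp0, the stalk protein often used as a reference gene, had 11593, 10627, 12375 and 11176 normalized reads in controls and 11936, 11269, 14088 and 11066 in Acot2 mKO animals. Rplp1 had 5735, 5521, 6042 and 5848 in controls and 6116, 5883, 6970 and 5617 in Acot2 mKO animals. Rplp2 had 3502, 3316, 3443 and 3371 against 3574, 3385, 3939 and 3190. All 3 stalk genes were highest in Acot2 mKO 3, and the groups overlapped.

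Rpsa, a small-subunit protein also known as a laminin receptor, had 7070, 6945, 7666 and 6960 normalized reads in controls and 7432, 7103, 8666 and 6985 in Acot2 mKO animals. Rps6, whose protein is phosphorylated by S6 kinase, had 1734, 1723, 1873 and 1644 in controls and 1781, 1720, 1923 and 1758 in Acot2 mKO animals. Rps19, needed for maturation of the small subunit, had 1825, 1994, 1974 and 1975 in controls and 1835, 1788, 2272 and 1821 in Acot2 mKO animals. Again Acot2 mKO 3 was highest, and for Rps19 the other 3 Acot2 mKO animals, at 1788 to 1835, lay near the lowest control.

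Rpl5 and Rpl11, which bind the Mdm2 ubiquitin ligase together with 5S RNA when ribosome assembly fails, were at 3651, 3761, 3865 and 3783 (Rpl5, controls) and 4085, 3851, 4425 and 3407 (Rpl5, Acot2 mKO). Rpl11 had 2096, 1947, 2308 and 2132 normalized reads in controls and 2264, 2000, 2308 and 2080 in Acot2 mKO animals. For Rpl11, control 3 and Acot2 mKO 3 were almost level. Rps27a, made as a fusion with ubiquitin, had 2618, 2526, 2755 and 2588 in controls and 2795, 2730, 2963 and 2544 in Acot2 mKO animals.

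Taking off the shift of each library lowered the SD of 78 of the 86 members and raised it in 8, among them Rpl3 (from 0.180 to 0.201). The median SD of the members' log2 levels over the 8 libraries was 0.106, against 0.175 for all genes tested. These SDs were not matched on level, and the median level was 2542 normalized reads for the members and 316 for all genes. The members' median SD was 0.0578 after the median of the members in each library had been taken off. Counting error alone would give the members a median of 0.0288. The least variable members were Rpl21 (0.0487), Rps28 (0.0585), Rpl36a (0.0671), Rps24 (0.0713) and Rps12 (0.0715). The most variable were the weakly counted copies Rps27rt (0.543), Rps3a2 (0.513), Rps4l (0.317) and Rpl37rt (0.294), followed by Rpl24 (0.20). Counting error alone would give an SD of 0.404 for Rps27rt and 0.137 for Rpl24.

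Acot2 mKO 3 stayed at the top under the 4 other scalings compared. With total reads, total reads without mitochondrial transcripts, the upper quartile or quantile normalization, its median stood at 0.156 to 0.230, and 70 to 76 members were highest there. Acot2 mKO 4 stayed lowest with the upper quartile (-0.115) and quantile normalization (-0.0856), but not with total reads. There the lowest median was that of control 2, at -0.0957 with and -0.114 without mitochondrial transcripts, against -0.0591 and -0.0460 in Acot2 mKO 4. Acot2 mKO 3 and 4 were the 2 animals with the most slow fibre mRNA, and control 2 was the animal with the most adipocyte mRNA, including 1738 normalized reads of Adipoq against 46.5 to 688 in the other 7 animals. The part of other fibres or cells in the shift was not tested.

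**Figure D3:**
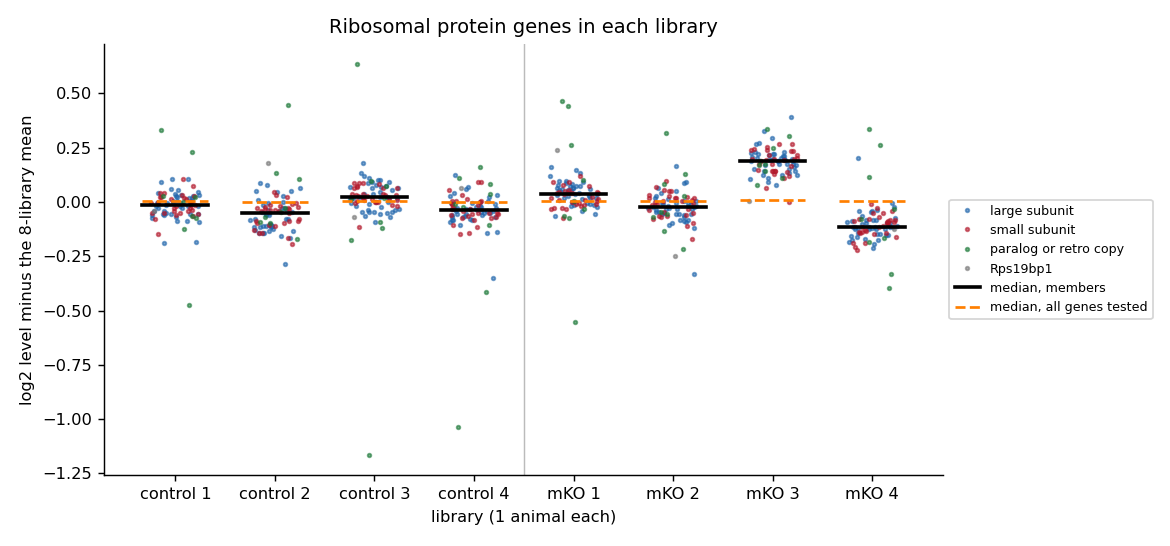
Log2 level of each of the 86 members minus its mean over the 8 libraries, by library, 1 point per member, coloured by kind, with the median of the members (solid bar) and of all genes tested (dashed bar). The members stand at a median of 0.19 in Acot2 mKO 3 and -0.12 in Acot2 mKO 4, and most of the points far from the rest are retro copies with few reads, with Rpl3 (-0.33 in Acot2 mKO 2) and Rpl24 among the others.

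No ribosomal protein gene passed the test between the genotypes, and none was separated from the spread between animals. Of the 86 members, 0 passed an adjusted p of 0.05 with limma (trend, Benjamini-Hochberg over 13638 genes), where 0.0147% of all genes tested did (2 genes, of which Acot2 is 1). At an unadjusted p under 0.05 the count was also 0, against 2.91% of all genes, and limma-voom on recovered reads called 0 as well. The groups overlapped for every member, whereas 0.924% of all genes were higher and 0.997% lower without overlap. The smallest p was that of Rpl8, a large-subunit protein at the catalytic centre (limma adjusted p = 0.9995).

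The fold changes were small and mostly on the same side. The log2 fold change of Acot2 mKO against control was above 0 in 72 of the 86 members (83.7%), where 51.7% of all genes tested were above 0. The median was 0.0454 for the members, 0.0489 for the large subunit and 0.0326 for the small subunit, against 0.00494 for all genes. Since the members moved together, these are not 86 separate observations. The side depended on which animals were kept. Without Acot2 mKO 3 the median was -0.00573 and 38 members were above 0, and without Acot2 mKO 4 the median was 0.0931 and 83 were above 0. Without both it was 0.0283, with 62 above 0. The difference in the members' share of all reads counted for genes was 0.0345 percentage points, and 0.00328 without Acot2 mKO 3.

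In 76 of the 86 members the 95% interval of the log2 fold change lay within -0.3 to 0.3. The SE was under 0.1 in 77 members and its median was 0.0740.

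Among the members with the smallest p were Rpl8 and Rpl18 of the large subunit and Rps9, Rps23 and Rps2 of the small subunit. Rpl8 had 5355, 5168, 5463 and 5148 normalized reads in controls and 5769, 5441, 6139 and 5284 in Acot2 mKO animals, a log2 fold change of 0.10 ± 0.06 (SE). Rpl18 had 2292, 2201, 2547 and 2170 against 2418, 2410, 2728 and 2375, a log2 fold change of 0.11 ± 0.07. Rps9, which helps to set decoding accuracy, had 4253, 4095, 4432 and 4258 against 4483, 4359, 5117 and 4318, a log2 fold change of 0.10 ± 0.06. In each of these genes at least 1 Acot2 mKO animal lay within the range of the controls.

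Rps23, at the decoding centre, had 2326 ± 57.0 normalized reads in controls and 2484 ± 190 in Acot2 mKO animals (SD, n = 4), a log2 fold change of 0.09 ± 0.06 (SE). Rps2 had 8936 ± 459 and 9639 ± 940, a log2 fold change of 0.11 ± 0.07. Both differences were within the spread of the Acot2 mKO animals. Without Acot2 mKO 3 the log2 fold change was 0.0569 for Rpl8, 0.0631 for Rpl18, 0.0427 for Rps9, 0.0484 for Rps23 and 0.0396 for Rps2.

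The largest positive log2 fold changes included those of Rps27rt (0.48 ± 0.39 SE), Rps3a2 (0.28 ± 0.35), Rpl24 (0.14 ± 0.16) and Rpl12 (0.12 ± 0.09). The first 2 are copies with few reads. Rps27rt had 0.22 without control 4 and 0.78 without control 3, Rpl24 had 0.05 without control 4, 0.23 without control 3 and 0.23 without Acot2 mKO 4, and Rpl12 had 0.04 without Acot2 mKO 3. Rps27rt had 10.1, 13.4, 22.9 and 6.49 normalized reads in controls and 20.2, 14.7, 16.0 and 18.4 in Acot2 mKO animals, and the highest value was that of a control. Rps3a2 had 34.2, 29.1, 11.5 and 30.3 in controls against 37.0, 24.5, 34.3 and 25.5, and its log2 fold change was -0.06 without control 3, 0.18 without Acot2 mKO 1 and 0.44 without control 1. Rpl12, which lies at the base of the stalk, had 3329, 3331, 3240 and 3362 in controls and 3829, 3262, 4234 and 3185 in Acot2 mKO animals. Its 4 controls lay closely together, and the Acot2 mKO animals lay on both sides of them.

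The 5 lowest were Rps4l (-0.16 ± 0.25 SE), Rps19bp1 (-0.07 ± 0.14), Rpl32 (-0.04 ± 0.07), Rps28 (-0.03 ± 0.06) and Rps29 (-0.02 ± 0.07). Rps19bp1 had 122, 142, 119 and 131 normalized reads in controls and 148, 105, 126 and 115 in Acot2 mKO animals. Rpl32 had 3257, 3124, 3353 and 3058 in controls and 3112, 3050, 3528 and 2826 in Acot2 mKO animals. In Rpl32, both the highest and the lowest value came from Acot2 mKO animals. Rps28 had 1662 ± 41.0 and 1626 ± 86.5, and Rps29 had 2570 ± 42.8 and 2538 ± 260 (SD, n = 4). None of these 5 differences exceeded its SE. Rps4l stood at -0.0029 without Acot2 mKO 1 and at -0.27 without Acot2 mKO 4, and the difference of its log2 ratio to Rps4x went from -0.193 to -0.0509 and -0.349.

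**Figure D4:**
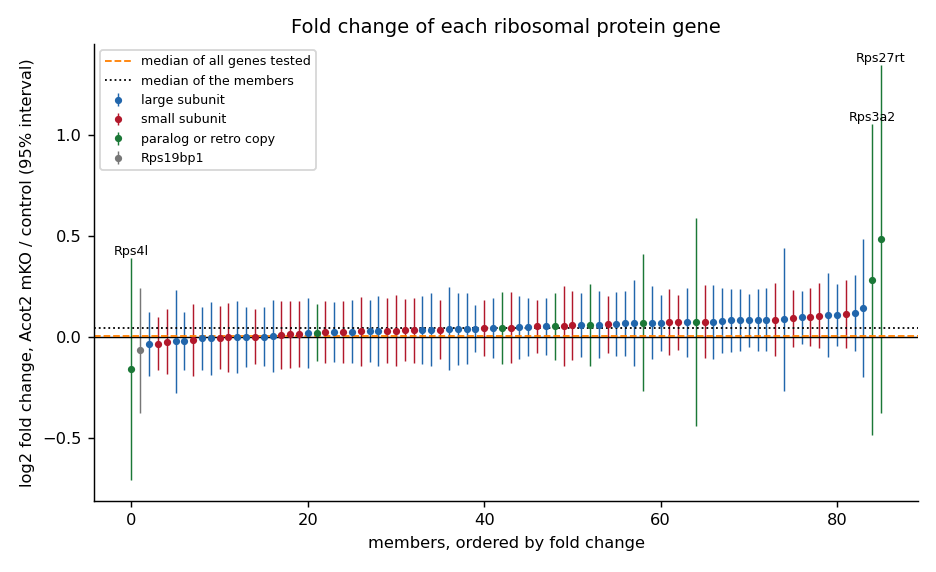
Log2 fold change of Acot2 mKO against control for each of the 86 members in order of size, coloured by kind, with 95% intervals from limma, the median of the members (dotted) and of all genes tested (dashed). All intervals include 0, and the 3 widest are those of Rps27rt, Rps3a2 and Rps4l.

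**Figure D5:**
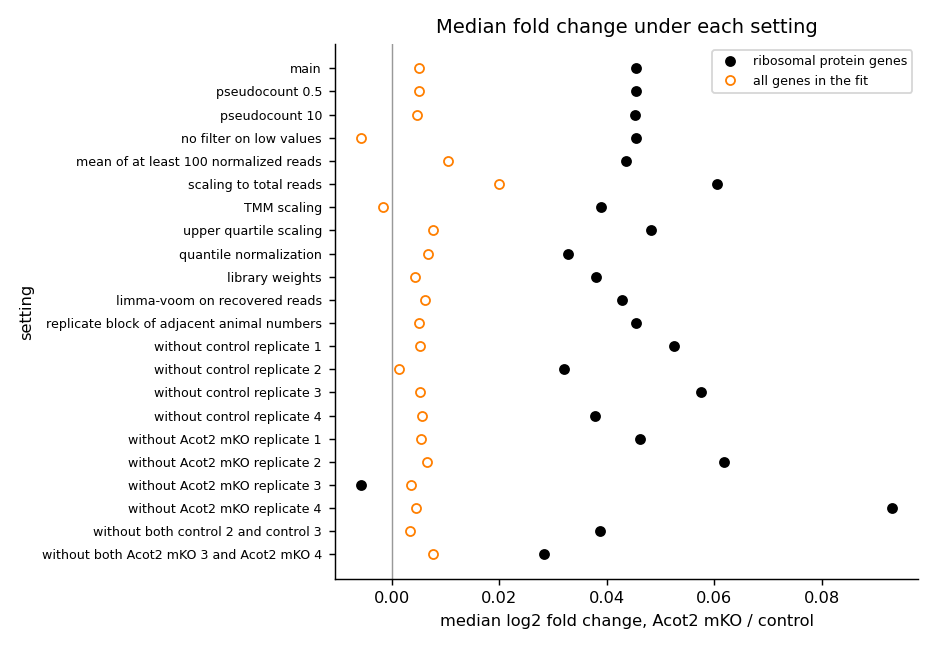
Median log2 fold change of the members (filled) and of all genes in the fit (open) under each setting. The median of the members lay between 0.0283 and 0.0931, except without Acot2 mKO replicate 3, where it was -0.00573.

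Genes of the wider translation apparatus were taken from 7 lists, in each of which limma called 0 genes, and an unadjusted p under 0.05 occurred in 1 list, ribosome biogenesis. The ribosomal proteins with other names include Gnb2l1 (also Rack1) and Fau. Gnb2l1 had 6698 ± 313 normalized reads in controls and 7131 ± 617 in Acot2 mKO animals, and Fau had 1329 ± 41.1 and 1326 ± 79.3 (SD, n = 4). Gnb2l1 was highest in Acot2 mKO 3 (7911) and Fau likewise (1437). The 8 genes listed under translation elongation had a median log2 fold change of 0.0299, with 6 above 0. Eef1b2 (0.07 ± 0.07 SE), Eef1a2 (0.05 ± 0.06) and Eef1g (0.04 ± 0.06) had the smallest p among them.

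The 18 other TOP mRNAs, a list that holds Gnb2l1, Fau and elongation factors too, had a median log2 fold change of 0.0262, with 13 above 0. Their median deviation was 0.128 in Acot2 mKO 3 and -0.0942 in Acot2 mKO 4. Of the 31 initiation factors 16 were above 0, and their median deviation was 0.0595 in Acot2 mKO 3 and -0.0932 in Acot2 mKO 4. Pabpc1, the poly(A)-binding protein on both lists, had 2098 ± 403 and 1792 ± 231 normalized reads, a log2 fold change of -0.22 ± 0.13 (SE). Btf3 (0.09 ± 0.07), Eif4h (0.07 ± 0.05) and Eif3g (0.10 ± 0.07) were next by p.

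RNA polymerase I and its factors, which make ribosomal RNA, had a median log2 fold change of 0.0403, with 14 of 20 above 0. Polr2k (0.22 ± 0.11 SE), Cd3eap (0.18 ± 0.11) and Twistnb (0.11 ± 0.07) had the smallest p of the list. The 48 ribosome biogenesis genes tested had a median of 0.0514, with 35 above 0. An unadjusted p under 0.05 was found for 2 of them (4.17%), near the 2.91% of all genes. Gar1, a protein of the H/ACA particles that guide pseudouridylation, had 58.3, 62.7, 51.6 and 68.2 normalized reads in controls and 40.4, 50.1, 29.7 and 48.9 in Acot2 mKO animals. The groups did not overlap, and limma's adjusted p was 0.9995. Of the 133 tested genes on the 7 lists, Gar1 alone was lower without overlap, and Eif4h and Ltv1 (named after its values were seen) were higher without overlap. The shares over all genes are 0.997% and 0.924%. Mrto4, needed for assembly of the stalk, had 493 ± 55.7 and 568 ± 30.1 normalized reads. Ncl, nucleolin, had 2854 ± 238 and 2537 ± 246.

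Of 18 tested genes of mTORC1 and its control of ribosomal protein synthesis, 12 lay below 0, with a median log2 fold change of -0.0337. Deptor, an inhibitor of mTOR, had 4801 ± 884 and 4064 ± 595 normalized reads, a log2 fold change of -0.23 ± 0.13 (SE). Eif4ebp2, a repressor of cap-dependent translation, had -0.16 ± 0.11, and Myc, which drives ribosome biogenesis, had -0.30 ± 0.25. This list did not follow the members in Acot2 mKO 3, where its median deviation was -0.0494.

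The 5 names that did not reach the filter were Rpl39l, Rpl10l, Rps3a3, Rps12l1 and Rpl6l. Rpl10l and Rps12l1 were at 0 in all 8 libraries. Rpl39l had 0 to 8 reads per library, so its ratio to Rpl39 was not computed. Rps3a3 came nearest to the filter, with 10 or more normalized reads in 3 libraries and a mean of 8.80, and Rps27rt was the nearest inside it, with 7 libraries and a mean of 15.3.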

How the data were processed

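Reads of stranded libraries from 8 muscle samples were summarised by the authors. The submitters' processing notes name FastQC, cutadapt, STAR, HTSeq, DESeq2 and GRCm38, with no role or version, and nothing in the sources used here says how reads with several matches were counted. The deposited values are other than plain counts: from the values, they are log2 of x + 1, where x is a read count divided by 1 factor per library. Undoing the log gave whole reads for 100% of values under 1000 normalized reads, within 0.1 of a whole number. Counts rounded to whole reads and summed over the genes came to 30415373 to 48834273 per library.

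The genotypes were compared with limma (3.58.1, R 4.3.3, with a trend) on the deposited log2 values of the 13638 genes that reached 10 normalized reads in 4 or more libraries, with Benjamini-Hochberg adjustment and a threshold of 0.05. A fold change on the log2(x + 1) scale understates changes of low genes. The fit was tested on simulated data. Ratios of paralogs were tested with exact permutation tests. Coordinates and transcript lengths are from GENCODE M21 (GRCm38), with the shortest principal basic transcript per gene, and promoters from RefSeq (GRCm38.p6).

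Members and gene lists were chosen with earlier results of these data known. Named members are the paralog pairs, Rplp0, Rplp1, Rplp2, Rpsa, Rps27a, Rps6, Rps19, Rpl5, Rpl11, the 5 highest and 5 lowest per kb, the 5 largest log2 fold changes in each direction, the 6 smallest p, the 5 largest and smallest SDs, and up to 3 genes by p in each list; some genes that this rule takes are not reported here. Alternatives were other pseudocounts (0.5 and 10), filters, scalings, library weights, limma-voom on recovered reads, adjacent animal numbers as a block, and fewer libraries. edgeR and DESeq2 were not run here, and limma-voom was the test on the recovered reads. Libraries of a group differed by more than sampling noise, so each counts as 1 replicate.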

Additional observations from a re-analysis of the deposited data

Results flagged for a closer look

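Some single animals stood apart from the other 3 of their group, in that the gap to the nearest animal took a share of the group's whole range (log2 scale) above Dixon's 95% critical value for 4 samples. This was so in 9 of the 96 groups of values examined, where chance gives about 1 in 20. Because the members moved together from animal to animal, the groups are not separate tests, and the count cannot be judged against that rate. Acot2 mKO 3 stood apart upward for Rpl18 (gap 0.871 of the range), Rpl3l (0.846), Rps19 (0.890) and the ratio of Rpl22l1 to Rpl22 (0.835). Control 1 stood apart downward for Rps19 (0.886) and control 2 downward for Rps27 (0.881) and Rps27l (0.906). Control 4 stood apart upward for Rpl22 (0.849), and control 3 downward for Rps3a2 (0.849), which had 11.5 normalized reads there.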

How the results depend on the processing

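In all 21 other settings limma called 2 genes in all and 0 ribosomal protein genes. The median log2 fold change of the members ran from 0.0329 to 0.0605 with other pseudocounts, filters, scalings, weights or limma-voom, and from -0.00573 to 0.0931 with each replicate left out. The share of reads differed by 0.00328 to 0.0533 percentage points with each replicate left out. Signs of values close to 0 turned. With each replicate left out, the log2 fold change ran from -0.0928 to 0.0845 for Rpl3, -0.0336 to 0.0478 for Rpl3l, -0.0943 to 0.0124 for Rpl32, -0.000950 to 0.115 for Rplp0, -0.158 to 0.00602 for Rps19bp1, -0.0598 to 0.000417 for Rps28, -0.0822 to 0.0295 for Rps29 and -0.0590 to 0.440 for Rps3a2. The log2 ratios, Acot2 mKO minus control, ran from -0.0366 to 0.128 (Rpl3l to Rpl3), -0.0485 to 0.0392 (Rpl22l1 to Rpl22), -0.00740 to 0.0278 (Rps27l to Rps27), -0.0318 to 0.122 (Rpl36al to Rpl36a) and -0.0931 to 0.0255 (Rpl7l1 to Rpl7). Without both control 2 and control 3 the signs of Rpl3 (0.0204), Rps3a2 (-0.106) and the ratios of Rpl3l (-0.0149), Rpl22l1 (0.0759), Rps27l (-0.01545), Rpl36al (-0.0438) and Rpl7l1 (0.0195) turned, and without both Acot2 mKO 3 and 4 that of Rpl3l (-0.0397). The cause was not tested.

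A replicate block of adjacent animal numbers left 2 genes and 0 members called, with a median of 0.0454 for the members, and gave the ratio of Rpl3l to Rpl3 a difference of 0.0435 (exact sign-flip permutation p = 0.5). With so few pairs of animals, the sign-flip test cannot reach 0.05. Samples with adjacent numbers correlated at 0.151, -0.0835, 0.188 and -0.0812, so the numbers were not taken to pair them. edgeR and DESeq2 were not run, nor was the ratio of Rpl39l to Rpl39. Depth limits the weakly counted genes most, and 5 members had a mean below 100 normalized reads.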
